A study of Mus musculus with 16 samples.

Results

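Oxidative phosphorylation is carried out by 5 enzyme complexes of the inner mitochondrial membrane. The genes described here are nuclear genes for their subunits, picked by symbol. Members were the protein-coding genes whose symbol begins with Nduf followed by a, b, c, s or v and a digit, is Sdha to Sdhd, or begins with Uqcr, Cox4 to Cox8 or Atp5. This gave 84 of the 21596 protein-coding genes and of the 46078 genes of any kind in the count files. They fell into 35 genes of complex I, 4 of complex II, 8 of complex III, 20 of complex IV and 17 of complex V. Ndufa4 and Ndufa4l2 were counted with complex IV, where Ndufa4 is placed by later work. The symbol rule leaves out some subunits, such as Cyc1 of complex III and Ndufab1 of complex I. Cox7a2l, a factor that joins complexes III and IV, and Atp5s, named as a coupling factor of the ATP synthase, carry subunit-like names and stayed in the set.

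Electrons from NADH enter at complex I, electrons from succinate at complex II, and both pass through complexes III and IV to oxygen, while complex V uses the resulting proton gradient to make ATP. Most subunits are encoded in the nucleus and imported, and a core of complexes I, III, IV and V is encoded by mitochondrial DNA. In the intestinal epithelium, mitochondrial activity is known to differ between crypt stem cells, Paneth cells and the absorptive cells of the villus.

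The data are 16 RNA-seq libraries of mouse intestinal organoids, cultures of gut epithelium, on a C57BL6 background and grown with EGF, R-spondin and Noggin. Apc mutant and wild type organoids without treatment were sampled on day 2 with n = 2 libraries each. Organoids labelled Apc mutant and organoids labelled wild type were grown in conditioned medium and sampled on day 2 and on day 4 with n = 3 libraries in each of the 4 groups. Per the labels' protocols, wild type organoids carried Lgr5-EGFP-IRES-CreERT2 and an mCherry construct (LeGO-C2). Apc mutant organoids carried Lgr5-EGFP-IRES-CreERT2 with Apcfl/fl alleles recombined in culture with 4OH-Tamoxifen, and a Venus construct (LeGO-V2). Villin-CreERT2.Apcfl/fl mice are named there as another crypt source, without saying which libraries came from them. Age, sex, pooling of animals and the number of clones are not stated in the labels. They name conditioned medium from Apc mutant organoids for all 12 treated libraries, whereas APCCM or WTCM in their titles could refer to the organoids or to the origin of the medium. The series design lists different groups from the labels, and the labels of single libraries were followed. Nothing says that libraries of a group came from separate cultures or animals, so p-values measure the spread between these libraries, which may be technical.

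Gene counts ranged from 17986815 to 29152692 per library in conditioned medium and from 8325979 to 13027701 in the untreated libraries. Apc, the targeted gene, averaged 233 CPM in untreated mutant and 72.7 CPM in untreated wild type libraries, and 237 to 281 CPM over all 12 conditioned medium libraries. Counts over the whole gene do not check the deletion. Notum, a Wnt target that reports loss of Apc function, averaged 285 CPM in untreated mutant and 0.273 CPM in untreated wild type libraries, and reached at most 1.03 CPM in conditioned medium. This goes against the mutant label of 6 libraries, which are called "labelled Apc mutant" throughout, and each direction given for them rests on that label. Gm42418, a gene that overlaps ribosomal RNA, ranged from 1.90 to 5.74% of the counts of conditioned medium libraries and from 0.0314 to 0.0505% of those of untreated libraries, so levels were compared within a medium only. The 5.74% was in replicate 1 of labelled wild type on day 4. That library also stood apart from its group in a chi-square over genes, at 39.9 and 42.2 per degree of freedom, whereas no other pair within a group exceeded 6.08 and none was below 3.30, so no library was a duplicate of another. Counts, medians and fold changes of members that rest on this library are given with and without it.

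Levels are CPM, counts scaled to library size after TMM, a correction for library composition. Fold changes are on the log2 scale with a standard error (SE), and a gene was called at an adjusted p under 0.05 in the edgeR quasi-likelihood test, adjusted by Benjamini-Hochberg for 16510 genes. In these data 77 of the 84 members passed the filter on low counts. The other 7 are isoforms of complex IV or relatives of its subunits. Cox7b2, Cox8b and Cox8c had 0 counts in all 16 libraries, which allows up to 0.00976 CPM at 3 counts over all libraries, counting error only. Cox4i2 had 2 counts in all, Ndufa4l2 had 5, Cox6b2 had 8 and Cox6a2 had 19.

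Promoter sequence is shown for 6 members chosen for the results that follow: the 3 genes for the c subunit of ATP synthase, which did not move together, and the members with the largest fall in complexes II, IV and V without conditioned medium. Each line gives 150 bases just before the start site from RefSeq (GRCm38.p6), read 5′ to 3′ on the strand of the gene. Capitals mark the E-box CACGTG in Atp5g1, the NRF1 core GCATGCG on both strands, overlapping, in Atp5g2 and Atp5k, the ERR motif AAGGTCA on the reverse strand in Atp5g3, and the ETS motif CCGGAAG on the reverse strand in Sdhd. No searched motif stands in the stretch of Cox7a1.
Atp5g1 (chr11:96075632-96075781, minus strand): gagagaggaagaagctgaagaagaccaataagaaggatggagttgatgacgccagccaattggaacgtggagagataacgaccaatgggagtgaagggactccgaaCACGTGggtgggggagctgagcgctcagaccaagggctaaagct
Atp5g2 (chr15:102671048-102671197, minus strand): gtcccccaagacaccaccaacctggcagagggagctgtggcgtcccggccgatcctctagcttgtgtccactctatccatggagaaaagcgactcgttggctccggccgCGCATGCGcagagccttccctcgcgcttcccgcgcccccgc
Atp5g3 (chr2:73911327-73911476, minus strand): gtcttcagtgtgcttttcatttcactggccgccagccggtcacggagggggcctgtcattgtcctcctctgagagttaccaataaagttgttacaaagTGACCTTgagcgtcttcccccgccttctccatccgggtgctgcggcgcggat
Sdhd (chr9:50603850-50603999, minus strand): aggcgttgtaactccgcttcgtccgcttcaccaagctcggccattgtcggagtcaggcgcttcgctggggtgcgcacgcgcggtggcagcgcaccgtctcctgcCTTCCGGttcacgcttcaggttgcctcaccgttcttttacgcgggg
Cox7a1 (chr7:30184021-30184170, plus strand): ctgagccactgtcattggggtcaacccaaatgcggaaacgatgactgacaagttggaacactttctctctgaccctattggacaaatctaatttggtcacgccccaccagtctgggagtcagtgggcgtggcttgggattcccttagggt
Atp5k (chr5:108434400-108434549, minus strand): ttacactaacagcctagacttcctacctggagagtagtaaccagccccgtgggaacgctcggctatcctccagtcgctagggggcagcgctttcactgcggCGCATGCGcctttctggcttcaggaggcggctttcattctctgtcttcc

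Among 68 members matched to a RefSeq promoter of 250 bases before to 50 after the start, searched on both strands, the NRF1 core GCATGCG stood in 14.7%, against 6.32% of the promoters of tested genes and 3.64% of all promoters. The ETS motif CCGGAAG stood in 22.1% of members, against 17.8% of tested and 9.12% of all promoters. The ERR motif AAGGTCA stood in 11.8%, against 3.24% and 4.66%, and the YY1 motif ATGGCGG in 13.2%, against 8.06% and 4.19%. The GC box GGGCGG was in 41.2% of members, against 63.6% of tested and 35.9% of all promoters. The E-box CACGTG was in 8.82%, against 10.1% and 7.24%, and the TATA box TATAAA in 10.3%, against 7.76% and 14.2%. These matches are letters in a window and were not tested as sites. In the untreated comparison, the 10 tested members with the NRF1 core had a median log2 fold change of -1.10, against -0.90 for the 55 without it. The 8 with the ERR motif had a median of -0.89, against -0.91 for the 57 without. The 26 with a GC box had a median of -0.70, against -1.03 for the 39 without. Medians were -1.06 for the 15 with the ETS motif against -0.89 for the 50 without, and -0.90 for the 9 with the YY1 motif against -0.93 for the 56 without. They were -1.09 for the 6 with the E-box against -0.90 for the 59 without, and -1.06 for the 5 with the TATA box against -0.91 for the 60 without.

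Without conditioned medium, nuclear subunit genes were lower in Apc mutant than in wild type organoids across all 5 complexes. Of the 77 tested members, 73 were called lower and 0 higher in mutant libraries, while 30.1% of all tested genes were called lower and 32.4% higher. The median log2 fold change of members was -0.92, a level 47.2% lower in mutant libraries, beside a median of 0 over all genes. All 77 had a negative value, and 36 were at least 2-fold lower. In 73 members the mutant libraries lay below both wild type libraries, against 36.4% of all genes. With library totals alone in place of TMM, the median of all genes was 0.17 and that of members -0.75, and 71 to 73 members were called lower over the alternatives other than leaving out a library.

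The summed counts of all members made up 1.03 and 1.07% of protein-coding counts in untreated mutant libraries and 1.81 and 1.74% in untreated wild type libraries, with no overlap. Complex V held the greatest share, with 0.436 and 0.443% in mutant against 0.754 and 0.762% in wild type libraries.

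**Figure D1:**
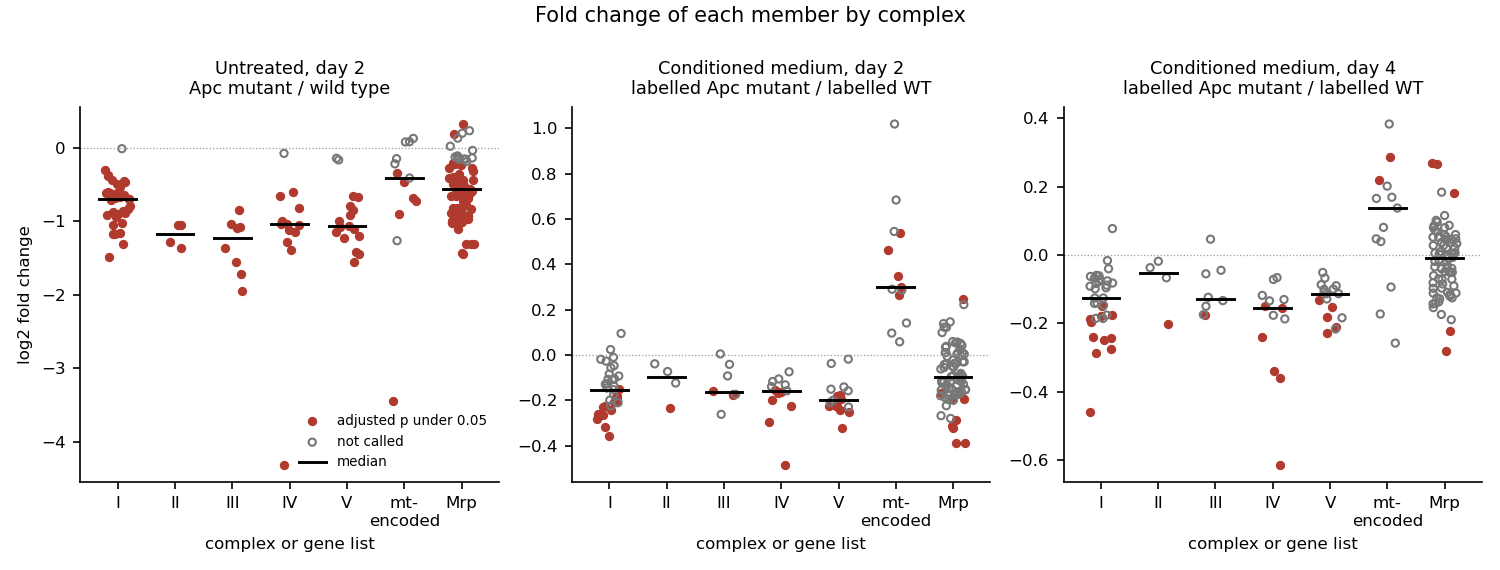
Log2 fold change (vertical axis; the scale differs between panels) of each tested member by complex, with mitochondrially encoded subunits (mt-encoded) and mitochondrial ribosomal protein genes (Mrp) beside them, in the 3 comparisons of labels. Filled points passed an adjusted p under 0.05, open points did not, and bars are medians; the medians of complexes I to V in untreated organoids lie between -1.23 and -0.69.

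Complex I, which oxidises NADH, had 34 of 35 members called lower in mutant libraries, with a median of -0.69. Ndufa5, an accessory subunit (GRCm38 chromosome 6, 24518666 to 24528013), had 20.6 and 18.8 CPM in mutant libraries, against 53.6 and 56.9 CPM in wild type libraries. Both mutant values lay far under both wild type values (log2 fold change -1.49, SE 0.10, adjusted p = 1.1e-12). Ndufv1, the subunit that binds NADH, was the exception. It had 151 and 176 CPM in mutant libraries, against 176 and 154 CPM in wild type libraries, and the groups overlapped fully (log2 fold change -0.01, SE 0.08, adjusted p = 0.91). Its neighbours in function Ndufv2 and Ndufv3 were called lower, at -0.69 and -0.61.

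Complex II, which oxidises succinate and also serves the tricarboxylic acid cycle, had all 4 members called lower, with a median of -1.17. Sdhd, a membrane anchor (chromosome 9, 50596357 to 50603812), had 153 and 146 CPM in mutant libraries, against 365 and 408 CPM in wild type libraries. On the log2 scale this was a change of -1.37 (SE 0.06, adjusted p = 1.6e-15). The catalytic subunit Sdha fell by 1.06, the iron-sulfur subunit Sdhb fell by 1.28 and the anchor Sdhc fell by 1.05 on the log2 scale.

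Complex III, which passes electrons to cytochrome c, had all 8 members called lower and the lowest median of the 5 complexes, -1.23. Uqcrq, a small subunit (chromosome 11, 53427922 to 53430831), had 24.1 and 42.0 CPM in mutant libraries, against 170 and 84.3 CPM in wild type libraries. The log2 fold change was -1.95 (SE 0.21, adjusted p = 8.9e-09). The groups did not overlap, but the libraries within each differed widely. The same kind of spread touched other members. In 7 of the 77 (Atp5d, Cox6a1, Ndufa2, Ndufa7, Ndufb7, Ndufs7 and Uqcrq, chosen after their values were seen), replicate 4 was over 1.3-fold below replicate 5 in mutant and over 1.3-fold above it in wild type libraries. Taking each group alone, replicate 4 was that far below replicate 5 in 11 members and above it in 1 in mutant libraries. In wild type libraries it was that far above in 10 members and below in 0. The core subunits Uqcrc1 and Uqcrc2 stayed within 1.3-fold between replicates and fell by 1.09 and 1.08.

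Complex IV, cytochrome c oxidase, had 12 of its 13 tested members called lower, with a median of -1.04. Cox7a1, the isoform of subunit 7a known from heart and skeletal muscle (chromosome 7, 30184144 to 30186078), showed the greatest fold change of all members. It had 0.555 and 0.428 CPM in mutant libraries, from 8 and 7 counts, against 9.24 and 10.5 CPM in wild type libraries, from 113 and 96 counts. This is a 19.9-fold lower level in mutant libraries (log2 fold change -4.31, SE 0.30, adjusted p = 4.0e-12). Cox7a2, the isoform found in most tissues, had 92.4 and 87.9 CPM in mutant libraries, against 186 and 190 CPM in wild type libraries. On the log2 scale this was a change of -1.06 (SE 0.09, adjusted p = 7.3e-11). Cox7a2l had 91.1 and 89.2 CPM in mutant libraries, against 97.2 and 92.9 CPM in wild type libraries, and was not called (log2 fold change -0.08, SE 0.06, adjusted p = 0.30). The 3 relatives thus ranged from the greatest fold change of the set to nearly the smallest.

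For the other subunits of complex IV with tissue-specific isoforms, 1 isoform each passed the filter. Cox4i1, Cox6a1, Cox6b1, Cox7b and Cox8a were called lower in mutant libraries, at -0.66, -1.12, -1.04, -1.39 and -0.60, while their counterparts Cox4i2, Cox6a2, Cox6b2, Cox7b2, Cox8b and Cox8c did not pass the filter. Cox4i1 had 281 and 331 CPM in mutant libraries, against 491 and 473 CPM in wild type libraries. Ndufa4 was called lower by 50.1%, and its relative Ndufa4l2 did not pass the filter.

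Complex V, the ATP synthase, had 15 of 17 members called lower, with a median of -1.06. Atp5k, subunit e (chromosome 5, 108433244 to 108434448), had 25.6 and 31.3 CPM in mutant libraries, against 82.7 and 84.8 CPM in wild type libraries. The log2 fold change was -1.55 (SE 0.12, adjusted p = 4.5e-11). Atp5b, the catalytic beta subunit and the member with the highest level per kilobase, had 1290 and 1256 CPM in mutant libraries, against 2236 and 2334 CPM in wild type libraries. On the log2 scale this was a change of -0.84 (SE 0.05, adjusted p = 3.2e-13). Per kilobase of exon, Atp5b stood at 664 CPM in mutant and 1193 CPM in wild type libraries, and Cox7a1 at 0.919 and 18.4 CPM. Atp5s was not called, at -0.14 (adjusted p = 0.45).

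The c ring of the ATP synthase is encoded by 3 genes, Atp5g1, Atp5g2 and Atp5g3, whose mature protein is the same in mammals. Atp5g3 had 176 and 181 CPM in mutant libraries, against 507 and 466 CPM in wild type libraries. The log2 fold change was -1.44 (SE 0.07, adjusted p = 1.0e-15). Atp5g1 had 23.6 and 25.1 CPM in mutant libraries, against 64.8 and 65.9 CPM in wild type libraries. On the log2 scale this was a change of -1.42 (SE 0.09, adjusted p = 2.9e-13). Atp5g2 had 19.6 and 25.4 CPM in mutant libraries, against 25.6 and 25.0 CPM in wild type libraries, so its groups overlapped and it was not called (log2 fold change -0.17, SE 0.13, adjusted p = 0.27). Of the 3, Atp5g2 is the one with the NRF1 core in the printed stretch. Atp5k, which also holds it, was called lower, and the link between motif and level was not tested.

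**Figure D2:**
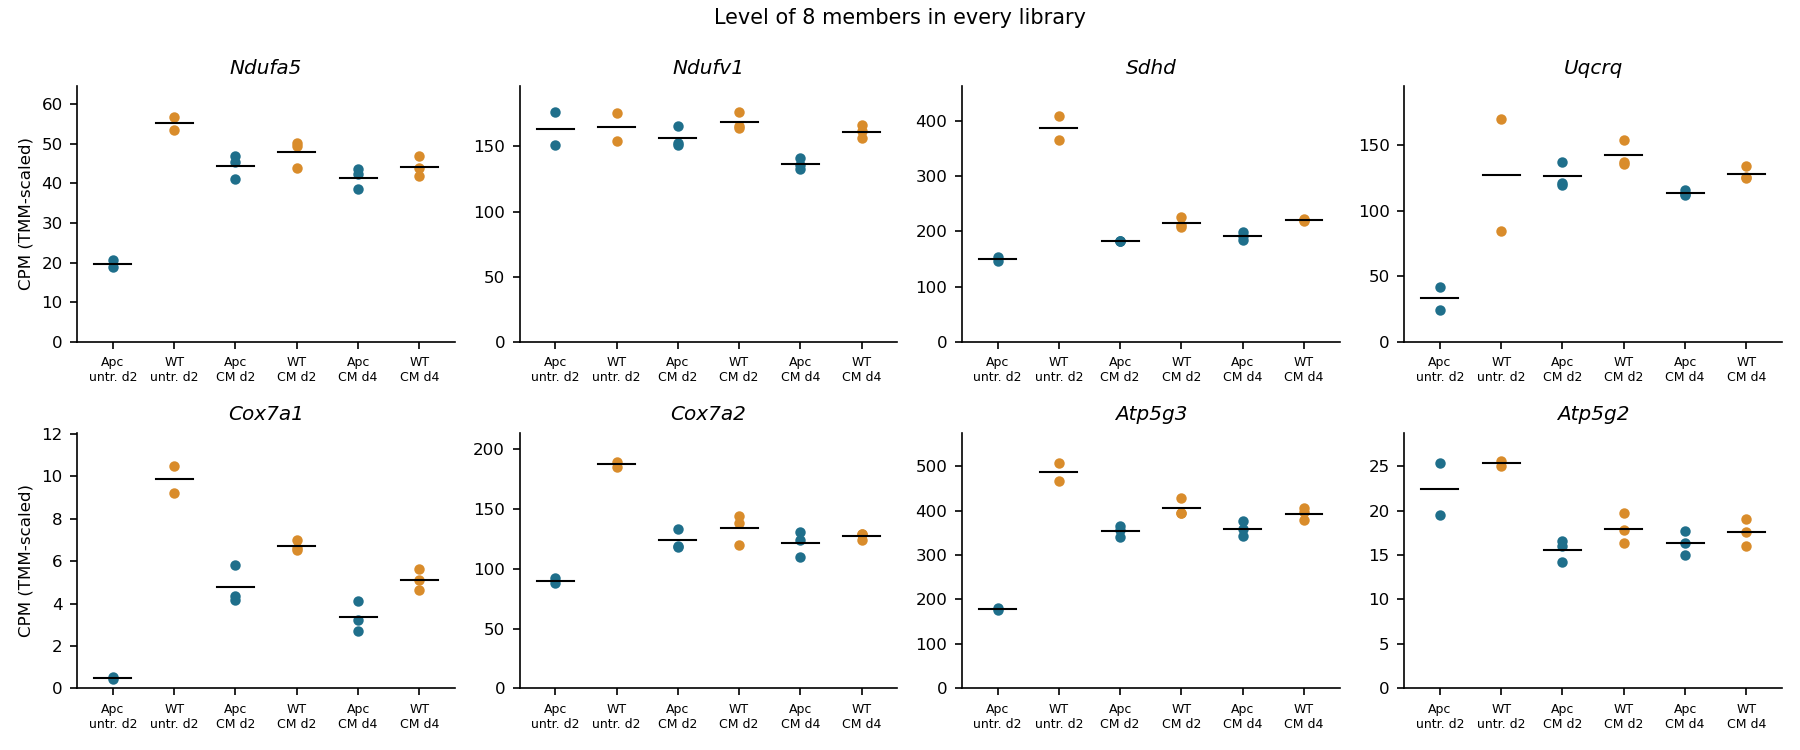
CPM (vertical axis, TMM-scaled, from 0) of 8 members in every library by group (horizontal axis; untr. is untreated, CM is conditioned medium, d is day); points are libraries and bars are group means. Cox7a1 and Atp5g3 separate untreated mutant from untreated wild type libraries, Ndufv1 and Atp5g2 do not, and the untreated libraries of Uqcrq are widely spread.

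Genes around the complexes were lower too in untreated mutant libraries, with exceptions. Over all tested genes, 30.1% were called lower and 32.4% higher in this comparison. Of 47 tested assembly factors, 33 were called lower and 7 higher (median -0.50). Of 77 mitochondrial ribosomal protein genes, 61 were called lower and 2 higher (median -0.56). Of 16 genes of the tricarboxylic acid cycle and pyruvate dehydrogenase, 15 were called lower and 1, Idh3a, higher (median -0.87). Mdh2, mitochondrial malate dehydrogenase, had 240 and 265 CPM in mutant libraries, against 1013 and 977 CPM in wild type libraries. The log2 fold change was -1.98 (SE 0.07). Among genes outside the symbol rule, the complex III subunit Cyc1 fell by 1.39 and the electron carrier Cycs by 1.51. The acyl carrier subunit Ndufab1 of complex I fell by 0.68.

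Regulators of mitochondrial gene expression did not move one way. Of 12, 7 were called lower and 3 higher, while 30.1% of all tested genes were called lower and 32.4% higher. Ppargc1b, a coactivator of mitochondrial biogenesis, had 1.39 and 1.77 CPM in mutant libraries, against 18.3 and 13.4 CPM in wild type libraries. On the log2 scale this was a change of -3.33 (SE 0.18, adjusted p = 2.9e-14). Its relative Ppargc1a had 12.4 and 13.3 CPM in mutant libraries, against 8.34 and 9.17 CPM in wild type libraries, and was called higher (log2 fold change 0.56, SE 0.13, adjusted p = 7.5e-04). Esrra, a nuclear receptor of these genes, fell by 0.83, and Tfam, which packages and transcribes mitochondrial DNA, fell by 0.75.

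Of the 13 subunits encoded by mitochondrial DNA, 6 were called lower and 0 higher in untreated mutant libraries (median -0.41). Their summed share of protein-coding counts was 4.08 ± 0.21% in mutant and 4.30 ± 0.33% in wild type libraries (SD, n = 2 each). On the TMM scale used for fold changes they summed to 30550 to 33130 CPM in mutant and 35420 to 40270 CPM in wild type libraries, without overlap. The core subunit mt-Co1 was not called (log2 fold change 0.13, SE 0.09, adjusted p = 0.22), while its nuclear-encoded partner Cox4i1 was. Several mitochondrial genes, such as mt-Co2 and mt-Co3, stood under 20 CPM in all libraries; reads with more than 1 alignment are in no gene, and mitochondrial genes have nuclear copies, so these levels are uncertain. Cytoplasmic ribosomal protein genes, which are as short as the members (median exon length 969 bases against 983), had 34 of 82 called lower and 4 higher (median -0.14). Glycolysis genes had 10 of 16 called lower and 3 higher (median -0.20). Beside these 3 lists, 30.1% of all tested genes were called lower and 32.4% higher.

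**Figure D3:**
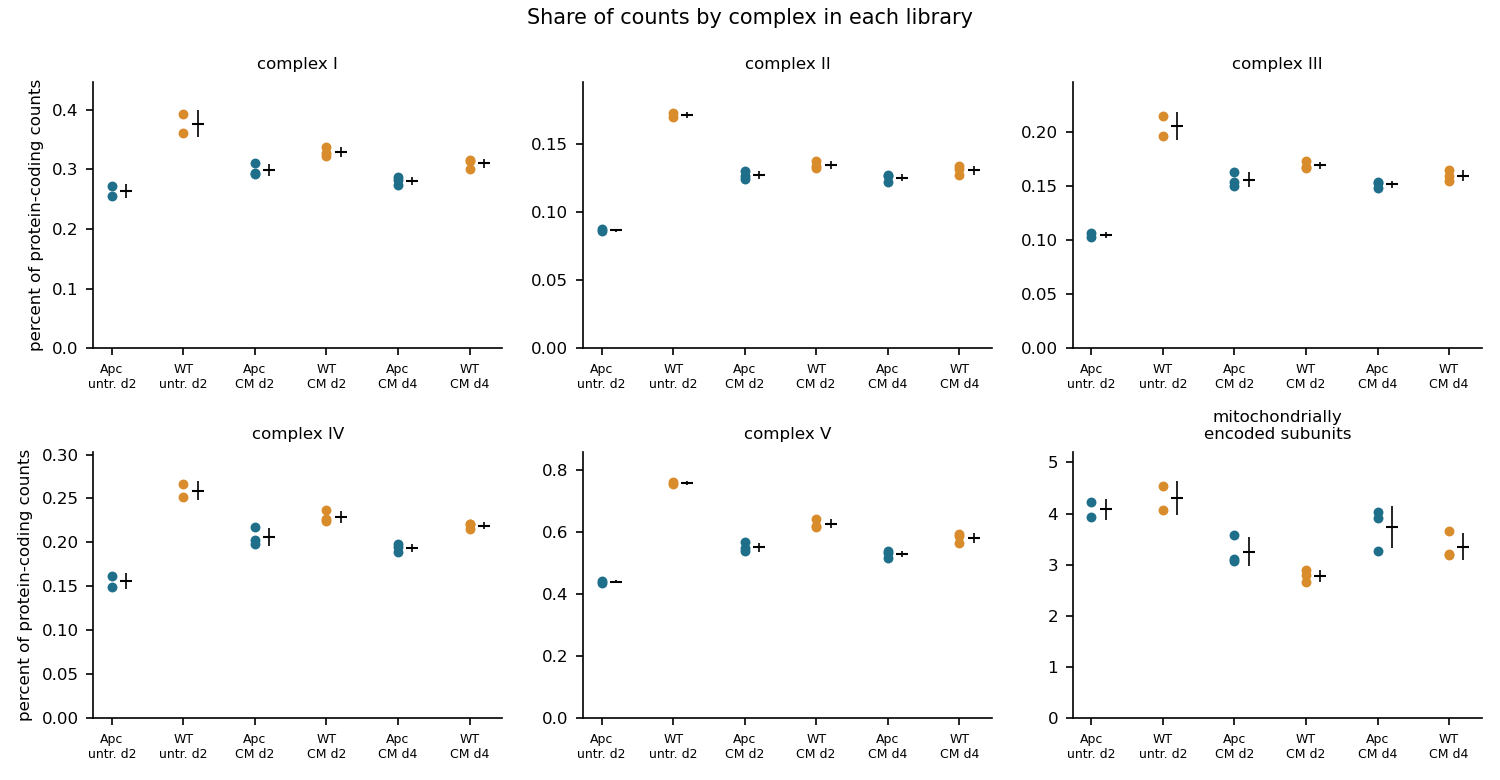
Percent of protein-coding counts (vertical axes, from 0) taken by the members of each complex and by the mitochondrially encoded subunits in each library, by group (blue, Apc mutant label; orange, wild type label; untr. is untreated, CM is conditioned medium, d is day); points are libraries, and the bar beside them is the mean ± SD. In all 5 nuclear panels both untreated mutant libraries lie below both untreated wild type libraries.

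Cell type markers moved with this difference. In untreated mutant libraries the 8 markers of absorptive enterocytes summed to 556 to 573 CPM, against 8656 to 8764 CPM in wild type libraries. The 6 goblet cell markers summed to 203 to 209 CPM, against 2884 to 3098 CPM, and the 5 Paneth cell markers to 776 to 825 CPM, against 6556 to 6804 CPM. The 6 enteroendocrine markers summed to 4.09 to 4.28 CPM, with 3 of them at 0, against 439 to 440 CPM. The 4 crypt stem cell markers summed to 1142 to 1162 CPM, against 2459 to 2678 CPM, and the 4 tuft cell markers to 3.74 to 5.63 CPM, against 21.1 to 23.8 CPM. The 6 fibroblast and stromal markers summed to 271 to 287 CPM, against 4.80 to 5.80 CPM, and in each group 3 of the 6 were at 0. Only Col1a1, Pdgfra and Vim of this list passed the filter on low counts. The sum thus rests on few genes and need not stand for stromal cells. The part of the cell type markers in the result was not tested. In bulk RNA, fewer cells of a type and less RNA per cell cannot be told apart. Reads outside annotated features were 6.86 to 7.32% in mutant and 4.78 to 5.02% in wild type libraries.

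Chromosome 19 was the only chromosome summarised, and its choice was not set in advance, so nothing is said of position in general. The 485 tested protein-coding genes of chromosome 19 had a median log2 fold change of 0.56 in untreated organoids. The 4 members there (Ndufb8, Ndufs8, Ndufv1 and Cox8a) had a median of -0.35 (21.3% lower), with 3 called lower. The 73 members elsewhere had a median level 50.0% lower, with 70 called lower. The part of that chromosome in the values of Ndufv1 and the other 3 was not tested.

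In conditioned medium on day 2 members were mostly lower under the Apc mutant label, at a much smaller size. The Wnt target Axin2 was also called lower under this label, at -0.36 on day 2 and -0.62 on day 4. Nkd1, another Wnt target, was called lower on day 4, at -1.40. Since the titles may name the origin of the medium, this need not be the same contrast as in untreated organoids. Of 77 members, 34 were called lower and 0 higher in libraries labelled Apc mutant, while 8.15% of all tested genes were called lower and 8.54% higher. The median log2 fold change was -0.17, a level 11.0% lower, and 74 of 77 values were negative. In 46 members the libraries of the labelled mutant lay below all those of the labelled wild type, against 17.8% of all genes. The count rests on few libraries. It was 9 without replicate 3 and 15 without replicate 1 of labelled Apc mutant, 10 without replicate 1 and 20 without replicate 2 of labelled wild type, and 19 with library totals alone.

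By complex, 14 of 35 members of complex I, 1 of 4 of complex II, 3 of 8 of complex III, 7 of 13 of complex IV and 9 of 17 of complex V were called lower on day 2. Ndufv3, an accessory subunit beside the NADH site, had 49.9, 54.7 and 52.2 CPM in labelled mutant libraries, against 69.0, 66.7 and 64.8 CPM in labelled wild type libraries. All 3 values of the labelled mutant lay below the others (log2 fold change -0.36, SE 0.06, adjusted p = 1.9e-04). Sdhd had 182, 183 and 184 CPM, against 226, 211 and 208 CPM in labelled wild type (log2 fold change -0.23, SE 0.05, adjusted p = 0.0024). Cox7a1 had 5.84, 4.17 and 4.36 CPM, against 7.00, 6.54 and 6.62 CPM in labelled wild type (log2 fold change -0.48, SE 0.15, adjusted p = 0.029). Uqcrh, the hinge subunit of complex III, had 171, 180 and 165 CPM in labelled mutant libraries, against 198, 191 and 194 CPM in labelled wild type libraries, and fell by 0.18 on the log2 scale. Atp5h, subunit d of the ATP synthase, had 88.6, 90.1 and 92.8 CPM, against 108, 104 and 112 CPM in labelled wild type, and fell by 0.25. In none of these 5 members did the groups overlap.

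Subunits encoded by mitochondrial DNA went the other way on day 2, when 8.54% of all tested genes were called higher and 8.15% lower. Of 13, 5 were called higher and 0 lower in libraries labelled Apc mutant (median 0.30), and their share of protein-coding counts was 3.25 ± 0.28% in labelled mutant and 2.78 ± 0.12% in labelled wild type libraries (SD, n = 3 each). The share of the nuclear members was 1.34 ± 0.04%, against 1.49 ± 0.03% in labelled wild type. mt-Nd1 had 5263, 5137 and 6574 CPM in labelled mutant libraries, against 4356, 4552 and 4421 CPM in labelled wild type libraries, a log2 fold change of 0.35 (SE 0.08, adjusted p = 0.0052).

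Other gene lists are given beside the members for day 2. Cytoplasmic ribosomal protein genes had 25 of 82 called lower and 0 higher (median -0.15), beside a median of -0.17 for the members. Glycolysis genes had 13 of 16 called lower and 0 higher (median -0.47). Assembly factors had 5 of 47 called lower and 0 higher (10.6% lower, median -0.10), and mitochondrial ribosomal protein genes had 8 of 77 called lower and 1, Mrpl33, higher (10.4% lower, median -0.10), shares near the 8.15% of all genes. Cyc1 fell by 0.28. Goblet markers summed to 5242 to 6131 CPM in labelled mutant and 3971 to 4461 CPM in labelled wild type libraries, Paneth markers to 5538 to 6000 CPM and 4135 to 4293 CPM, enterocyte markers to 7604 to 7940 CPM and 7701 to 8244 CPM, and crypt stem cell markers to 2406 to 2576 CPM and 3154 to 3370 CPM. Enteroendocrine markers summed to 780 to 888 CPM in labelled mutant and 470 to 491 CPM in labelled wild type libraries, and tuft cell markers to 28.3 to 36.2 CPM and 19.8 to 25.5 CPM. Single enterocyte markers went both ways, with Anpep (0.83) and Apoa1 (0.59) called higher and Apoa4 (-0.58) and Fabp2 (-0.39) called lower. Reads outside features were 15.6 to 19.2% in labelled mutant and 14.4 to 16.5% in labelled wild type libraries. The part of these differences in the members' values was not tested.

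On day 4, 24 of 77 members were called lower and 0 higher in libraries labelled Apc mutant, while 7.8% of all tested genes were called lower and 7.83% higher. The median log2 fold change was -0.13, a level 8.63% lower, and 75 values were negative. In 43 members the labelled mutant libraries lay below all labelled wild type libraries, against 17.7% of all genes. Without replicate 1 of labelled wild type, the library that stood apart, 21 were called, the median was -0.15, 75 values were negative, and the labelled mutant libraries lay below the 2 others of labelled wild type in 58 members, against 22.5% of all genes. The count called lower was 12 without replicate 1 or without replicate 2 of labelled Apc mutant, 15 without replicate 2 and 12 without replicate 3 of labelled wild type, and 11 with library totals alone. Crypt stem cell markers summed to 1729 to 1896 CPM in labelled mutant and 3390 to 3510 CPM in labelled wild type libraries, enteroendocrine markers to 1026 to 1119 CPM and 703 to 834 CPM, enterocyte markers to 9559 to 10100 CPM and 10430 to 11430 CPM, and tuft cell markers to 39.8 to 46.8 CPM and 29.1 to 34.6 CPM. Goblet markers summed to 6566 to 6643 CPM in labelled mutant and 5643 to 7088 CPM in labelled wild type libraries, and Paneth markers to 4963 to 5297 CPM and 5285 to 6147 CPM. These sums hide changes of single markers, some of them opposite. Of the enterocyte markers, Anpep (0.75) and Apoa1 (0.35) were called higher, and Apoa4 (-1.06), Fabp2 (-0.46) and Sis (-0.25) lower. Of the Paneth markers, Mmp7 (0.36) and Ang4 (0.23) were called higher and Itln1 (-0.47) lower. Of the goblet markers, Clca1 (1.44), Zg16 (0.98), Muc2 (0.33) and Agr2 (0.19) were called higher, and Fcgbp and Tff3 were not called. Leaving out replicate 1 of labelled wild type, 2 enterocyte markers were called higher and 3 lower, and 2 Paneth markers higher and 1 lower. Of the goblet markers, 3 were then called higher and 0 lower. Without the library that stood apart, the highest sums in labelled wild type were 3483 CPM for crypt stem cells, 721 CPM for enteroendocrine cells, 32.8 CPM for tuft cells, 6981 CPM for goblet cells and 5693 CPM for Paneth cells, with the lowest sums as given. Reads outside features were 16.2 to 18.3% in labelled mutant and 14.6 to 15.2% in labelled wild type libraries. The part of these in the members' values was not tested.

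Ndufa1, a small subunit of complex I encoded on the X chromosome (37187588 to 37191163), had 22.3, 24.1 and 23.5 CPM in labelled mutant libraries on day 4, against 30.7, 31.0 and 34.1 CPM in labelled wild type libraries. The groups were far apart (log2 fold change -0.46, SE 0.08, adjusted p = 1.1e-04). Cox7a2l had 87.3, 86.7 and 89.6 CPM, against 113, 113 and 108 CPM in labelled wild type (log2 fold change -0.34, SE 0.05, adjusted p = 2.1e-05). Cox7a1 had 3.23, 4.13 and 2.70 CPM, against 5.64, 5.10 and 4.62 CPM in labelled wild type (log2 fold change -0.61, SE 0.16, adjusted p = 0.0096). Ndufv1, which was even between untreated groups, was called lower here at -0.24 (adjusted p = 0.0073). Sdhd had 193, 184 and 198 CPM in labelled mutant libraries, against 221, 222 and 220 CPM in labelled wild type libraries, and fell by 0.20 on the log2 scale. Uqcrfs1, the Rieske iron-sulfur subunit of complex III, had 171, 169 and 181 CPM, against 191, 190 and 208 CPM in labelled wild type, and fell by 0.18. Atp5g1 had 32.6, 30.7 and 30.9 CPM, against 34.4, 37.7 and 38.1 CPM in labelled wild type, and fell by 0.23. For these 3 members too the libraries of the labelled mutant lay below all those of the labelled wild type. Without replicate 1 of labelled wild type, the log2 fold changes were -0.49 for Ndufa1, -0.33 for Cox7a2l, -0.54 for Cox7a1, -0.26 for Ndufv1, -0.20 for Sdhd, -0.20 for Uqcrfs1 and -0.27 for Atp5g1. All 7 were still called, with edgeR adjusted p-values of at most 0.046.

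Beside the members on day 4, mitochondrially encoded subunits had 2 of 13 called higher and 0 lower (median 0.14), and 0 were called in edgeR without replicate 1 of labelled wild type, with 2 at an unadjusted p under 0.05 (median 0.16). Glycolysis genes had 9 of 16 called lower and 1, Hk1, higher (median -0.29), with the same counts without that library (median -0.30). Cytoplasmic ribosomal protein genes had 4 of 82 called lower and 0 higher (median -0.08), and 1 lower without that library. Assembly factors had 1 of 47 called lower and 0 higher (median -0.01). Mitochondrial ribosomal protein genes had 3 of 77 called higher and 2 lower (median -0.01), and 2 higher and 1 lower without that library. Over all tested genes, 7.8% were called lower and 7.83% higher on day 4, and 6.16% were called lower without that library.

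Of the members called lower, 21 were shared by day 2 and day 4, which is 61.8% of the 34 on day 2 and 87.5% of the 24 on day 4, while 3.66% of all tested genes were called lower on both days. Of all genes called lower on day 4, 46.9% were called lower on day 2. Without replicate 1 of labelled wild type on day 4, 17 members were shared. The 2 days share no library. The label difference itself was not called to differ between days for any member by edgeR or by DESeq2, with 1 member at an unadjusted p under 0.05 in edgeR, while 0.884% of all genes were called higher and 1.24% lower. A total of 20 members were called lower in all 3 comparisons, while 1.99% of all genes were, and 16 members without the library that stood apart. Among the 20 were Atp5a1, Atp5b, Cox4i1, Cox5b, Cox7a1, Ndufa1, Ndufv3, Sdhd and Uqcrfs1. Cox7a2l was called in conditioned medium on both days and not in untreated organoids.

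**Figure D4:**
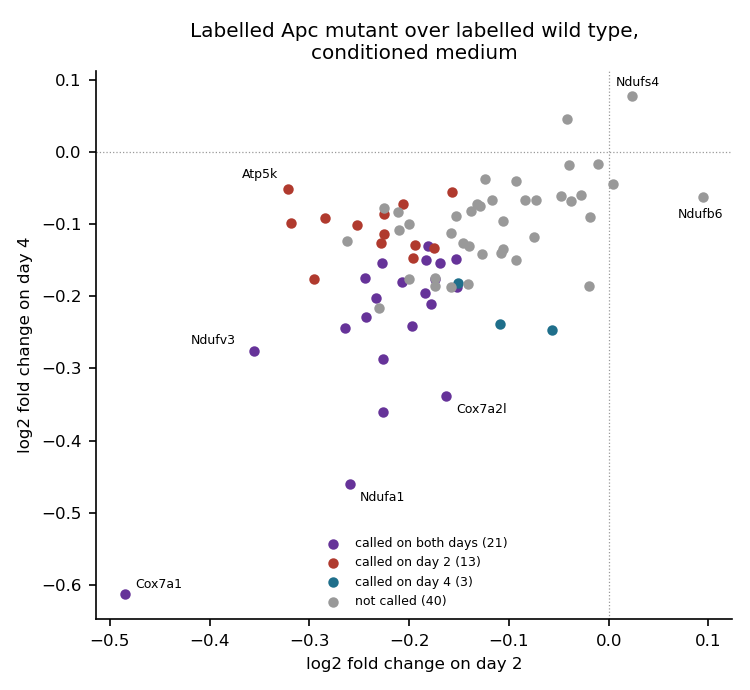
Log2 fold change of labelled Apc mutant over labelled wild type in conditioned medium for the 77 tested members, day 2 on the horizontal axis and day 4 on the vertical axis, coloured by the day on which the member was called. Most points lie below 0 on both axes, with 74 negative on day 2 and 75 on day 4, and Cox7a1 lies farthest from 0.

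The label difference was smaller in conditioned medium, where the label may name the medium, than in untreated organoids. For 68 of 77 members the label difference on day 2 was higher, that is closer to 0, in conditioned medium than in untreated organoids, with 0 called lower, while 26.7% of all genes were called higher in that test and 26.4% lower. The median of the difference was 0.78 on the log2 scale. Of the 9 members not called, Atp5g2, Atp5s, Cox7a2l and Ndufv1 were also those not called in untreated organoids. Whether this goes with the medium, with the label or with how the libraries were made cannot be told apart.

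Between days within conditioned medium few members were called. In libraries labelled Apc mutant, 5 members were called lower and 1 higher on day 4 than on day 2, while 11.7% of all genes were called lower and 12.2% higher. In libraries labelled wild type, 3 were called lower and 1 higher, while 11.6% of all genes were called lower and 12.5% higher. Cox7a1 and Atp5g1 were lower on day 4 under both labels, at -0.53 and -0.23 in labelled mutant and -0.40 and -0.24 in labelled wild type libraries. Ndufb6 had 33.0, 34.0 and 37.4 CPM on day 4, against 39.7, 47.2 and 43.9 CPM on day 2, and fell by 0.32 in labelled mutant libraries. There, Uqcrh was higher by 0.17, and Cox7a2l was higher by 0.19 in labelled wild type libraries. Without replicate 1 of labelled wild type on day 4, the change between days in labelled wild type libraries was -0.47 for Cox7a1 and 0.17 for Cox7a2l, both called, and -0.20 for Atp5g1, which was no longer called (edgeR adjusted p = 0.053). These small counts changed by more than 1.5 times on leaving out single libraries: in labelled mutant libraries the lower count was 3 without replicate 1 and 1 without replicate 2 of day 2, and 1, 2 and 3 without replicates 1, 2 and 3 of day 4. The higher count there was 0 without replicate 3 of day 2 or replicate 2 of day 4. In labelled wild type libraries the lower count was 0 without replicate 1 of day 2 and 1 without replicate 1 of day 4, and the higher count was 2 without either untreated wild type library, which enters through the shared fit.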

How the data were processed

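The deposited files hold raw counts per gene, made by the authors. Trimmomatic 0.36, HISAT2 2.1.0, HTSeq 0.6.1p1 and GRCm38 are named in the submitters' processing notes; for options, strand setting and annotation release the entry is: not given in the sources used here. Without a stated strand setting, overlapping genes cannot be separated, and reads with more than 1 alignment were in no gene, so members with near-identical pseudogenes are uncertain. Symbols and coordinates came from GENCODE M21, which named 98.2% of the identifiers. The summary lines of HTSeq entered neither library sizes nor tests; reads outside features were 4.78 to 19.2%.

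All 16 libraries in 6 groups were fitted together with edgeR 4.0.16 (limma 3.58.1, R 4.3.3), with TMM factors of 0.898 to 1.26 and the filterByExpr filter, which kept 16510 genes. The fit had 10 residual degrees of freedom and a biological coefficient of variation of 5.96%. It was also run on simulated data with few changed genes and an equal spread for all genes. The untreated comparison differs on both counts, so that run says nothing of accuracy there. The 7 comparisons were label in each medium and day, day within each label, and the changes of the label difference with day and with medium. Libraries of a group were compared by a chi-square over genes with at least 10 counts in the pair. Levels per kilobase used the exons of coding transcripts. Alternatives were DESeq2 1.42.0, other scalings, filters, gene sets, library sets, a replicate block and leaving out each library. Members named were, per comparison and complex, the one with the greatest called change, no overlap between groups and a mean of at least 5 CPM, plus the isoform families; Ndufv1 and Atp5b were chosen after their values were seen, as were the list genes named. The members and lists were chosen with earlier results of these data known.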

Additional observations from a re-analysis of the deposited data

Results flagged for a closer look

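A single result was picked out by a test of the difference between groups. The label difference of 68 members on day 2 was higher, closer to 0, in conditioned medium than in untreated organoids. In the same test 26.7% of all genes were called higher and 26.4% lower. Over the 77 tested members, the median log2 fold change was -0.17 in conditioned medium and -0.92 in untreated organoids. Reads outside annotated features also differed, at 14.4 to 19.2% in conditioned medium and 4.78 to 7.32% in untreated libraries, and the part of this in the result was not tested.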

How the results depend on the processing

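Without conditioned medium, 70 to 74 members were called lower on leaving out each library and 71 to 73 under the other alternatives. In conditioned medium the counts of members called lower ranged from 9 to 38 on day 2 and from 12 to 26 on day 4 on leaving out a library, and from 19 to 46 and 11 to 31 otherwise, with the lowest values, 19 and 11, under library totals alone. The highest, 46 and 31, came from a crossed replicate block that was added after seeing the data. Between days, leaving out a library gave 1 to 6 called lower and 0 to 1 higher in labelled mutant libraries, and 0 to 4 lower and 1 to 2 higher in labelled wild type libraries. For the labelled wild type libraries between days, 2 were called higher under DESeq2, median-of-ratios scaling or no filter, 3 with libraries of one medium only and 4 with a crossed replicate block. Lower calls there numbered 5 with no filter or protein-coding genes only, 6 with library totals alone, and 7 with libraries of one medium only or the crossed block. In labelled mutant libraries, 11 were called lower with libraries of one medium only. Library totals alone gave 1 member called lower in the change of the label difference with medium, where leaving out a library gave 62 to 71 called higher. No member was called in the change with day under any alternative. No named member reversed in a comparison where it was called.

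The replicate numbers did not pair the libraries: same-numbered libraries in conditioned medium had correlations of -0.0492 to 0.0529. With the replicate block, 73 members were called lower in untreated organoids, 27 on day 2 and 18 on day 4. The correlation was -0.149 between untreated groups, so a crossed block was added after seeing the data, which gave 73, 46 and 31. It swaps the replicate numbers of the untreated wild type libraries only. The 46 and 31 in conditioned medium therefore came through the shared fit and say nothing of pairing there. Lower depth in the 4 untreated libraries makes weakly expressed members such as Cox7a1 less certain there.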
